A study of Mus musculus with 4 samples.

Results

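Natural killer (NK) cells of the mouse kidney were described here through 1, 4 and 7 days of glyoxylate treatment. They were chosen by their measured counts, as barcodes with at least 500 unique molecular identifiers (UMIs) and at most 50% of UMIs from mitochondrial (mt-) genes that held at least 2 UMIs of Nkg7, at least 2 of Gzma, Ncr1 and Klrb1c together, no UMI of Cd3d, Cd3e, Cd3g or Cd79a, and at most 1 of C1qa, C1qb and C1qc. These limits selected 126 of 56471 passing barcodes, or of 60670 barcodes in all: 35 at day 0 (D0), 65 at day 1 (D1), 8 at day 4 (D4) and 18 at day 7 (D7). All groups were male C57BL/6 mice, 6-8 weeks old, given intraperitoneal glyoxylate on 0 (D0), 1 (D1), 4 (D4) or 7 (D7) days in a row. Whole kidneys were dissociated with trypsin and DNase, red blood cells were lysed, and the cells went into droplet 3′ RNA sequencing with no sort named. The number of mice per library is not stated, nor whether D0 mice received a vehicle. Each day has 1 library, so no difference between days has a replicate check and no p-value is given. Intervals are 95% intervals that cover counting error only.

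NK cells are innate lymphocytes that kill stressed or infected cells with perforin and granzymes and that release chemokines and interferon gamma. They read their targets through a balance of activating and inhibitory receptors, many of them encoded in one cluster on mouse chromosome 6. The activating receptors signal through small adaptor proteins such as Fcer1g and Tyrobp, and the cells lack the CD3 complex of T cells. Glyoxylate is turned into oxalate in the body, and in mice it is used to bring about calcium oxalate deposits in renal tubules.

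The promoters of 3 genes that mark these cells are printed to show the sequence in front of an activating receptor, an adaptor and a killing effector. Ncr1 encodes the receptor NKp46, Fcer1g the adaptor it signals through, and Prf1 perforin. They come from RefSeq (build GRCm38.p6), each with 250 bases before and 50 from the annotated start on the gene's own strand, at chr7:4337465-4337764 (plus strand), chr1:171234300-171234599 (minus strand) and chr10:61297586-61297885 (plus strand). Capitals mark the ETS letters AGGAAG and the RUNX letters TGTGGT on either strand. No capital run is a T-box match (AGGTGTGA), and no motif contains another.
Ncr1: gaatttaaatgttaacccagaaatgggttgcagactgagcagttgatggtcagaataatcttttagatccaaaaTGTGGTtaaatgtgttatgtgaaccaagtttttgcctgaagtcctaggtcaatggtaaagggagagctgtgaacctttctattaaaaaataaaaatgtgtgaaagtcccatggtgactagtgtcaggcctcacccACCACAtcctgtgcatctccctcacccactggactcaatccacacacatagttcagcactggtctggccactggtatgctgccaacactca
Fcer1g: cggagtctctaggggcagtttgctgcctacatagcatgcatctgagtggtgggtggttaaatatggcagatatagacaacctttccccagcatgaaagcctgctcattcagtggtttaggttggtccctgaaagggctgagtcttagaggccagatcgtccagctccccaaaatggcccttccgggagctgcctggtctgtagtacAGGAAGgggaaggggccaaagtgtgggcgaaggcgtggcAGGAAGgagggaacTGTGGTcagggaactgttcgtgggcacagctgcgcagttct
Prf1: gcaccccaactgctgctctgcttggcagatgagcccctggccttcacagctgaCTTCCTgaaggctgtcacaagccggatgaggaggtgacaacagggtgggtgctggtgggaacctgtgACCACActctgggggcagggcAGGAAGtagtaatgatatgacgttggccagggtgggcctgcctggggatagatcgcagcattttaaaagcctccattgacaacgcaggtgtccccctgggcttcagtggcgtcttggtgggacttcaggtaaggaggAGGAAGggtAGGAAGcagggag
Ncr1 held 2 of these runs, Fcer1g 3 and Prf1 5. The promoter of Klra4, an activating receptor gene, was read too, held 0 of them and is not printed. Among the 20 leading genes described below, 15 had a promoter in the RefSeq table. AGGAAG lay in 6 of these 15, and in 35.1% of all 27025 promoters. TGTGGT lay in 6 of 15 and in 16.9% of all promoters, and AGGTGTGA in 0 of 15 and 1.27%. A match is a run of letters and not a shown binding site.

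The share of passing barcodes in the NK gate was highest at D1. Day 0 stood at 0.242% (interval 0.168 to 0.336%) and day 1 at 0.569% (interval 0.439 to 0.724%). Day 4 stood at 0.0497% (interval 0.0215 to 0.0979%) and day 7 at 0.125% (interval 0.0738 to 0.197%). The share at D1 was 2.35 times that at D0 (1.54 to 3.66), that at D4 0.206 times (0.0824 to 0.451) and that at D7 0.515 times (0.275 to 0.935). The days differ in how deep a barcode had to be to enter the deposited list. Its shallowest barcode had 500 UMIs at D0 and D1, 2919 at D4 and 2773 at D7, and this step and the days cannot be told apart.

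With at least 3000 UMIs per barcode in every library, 9, 21, 8 and 18 NK cells remained at D0, D1, D4 and D7. Their shares were 0.0913, 0.282, 0.0509 and 0.132%. D1 was then 3.08 times D0 (1.35 to 7.65), D4 0.557 times (0.187 to 1.63) and D7 1.44 times (0.614 to 3.64). The higher share at D1 was thus present under both depth limits, whereas the intervals at D4 and D7 include equality with D0 at the deeper limit, and the direction at D7 turns. Set against T cells of the same library, NK cells made up 11.3% of both kinds at D0 (interval 7.97 to 15.3%), 11.99% at D1 (interval 9.38 to 15.0%), 4.02% at D4 (interval 1.75 to 7.77%) and 10.7% at D7 (interval 6.44 to 16.3%). With at least 3000 UMIs the shares were 7.63, 6.67, 4.12 and 11.3%. The NK share of NK and T cells together at D1 thus lay within the D0 interval under both limits. T cells numbered 276 at D0 and 477 at D1.

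**Figure D1:**
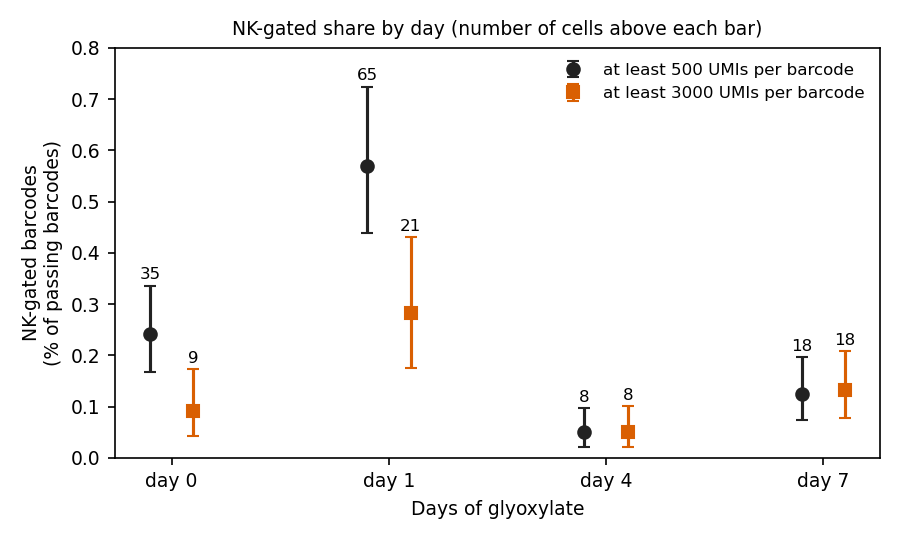
Share of passing barcodes in the NK gate by day of glyoxylate (x axis, days; y axis, percent), with exact 95% binomial intervals and the number of cells above each interval, for barcodes with at least 500 UMIs (circles) and at least 3000 UMIs (squares). D1 is highest under both limits, at 0.569 and 0.282%, while D0 falls to 0.0913% when shallow barcodes are left out.

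Few D0 and D1 barcodes lay at the edges of the gate, relative to the cells inside it, but at D4 the edges held more barcodes than the gate. Barcodes that met every other limit but held only 1 Nkg7 UMI numbered 3, 1, 4 and 4 at D0, D1, D4 and D7, and those with exactly 2 numbered 0, 2, 1 and 1. Barcodes with no UMI of Gzma, Ncr1 or Klrb1c but all else in place numbered 1, 3, 7 and 2, and those with 1 such UMI 0, 1, 3 and 1. Those barred by a single Cd3 UMI numbered 1, 5, 5 and 2. With a looser gate, at least 1 UMI in place of 2 for Nkg7 and for the 3 other genes together, there were 38, 70, 15 and 23 cells, or 0.262, 0.6125, 0.0932 and 0.159% of passing barcodes. D1 was then 2.335 times D0 (1.55 to 3.56), D4 0.355 times (0.181 to 0.661) and D7 0.607 times (0.345 to 1.045). At D4 it added 7 cells to the 8, and at D7 its interval includes equality with D0. Between 50 and 81 barcodes were shared by each pair of libraries, and 1 NK barcode, at D0, was among them. Library totals lay between 85009491 and 99337001 UMIs.

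The genes of the gate show how these cells were chosen and are given as a description. Gzma (granzyme A, a secreted protease of killer cells, chr13:113093825-113100981, minus strand) was counted 861, 2257, 100 and 314 times on the 4 days, in 33 of 35, 63 of 65, 8 of 8 and 18 of 18 cells. Nkg7, a granule membrane protein gene at chr7:43437073-43438249 (plus strand), had 259, 675, 32 and 87 UMIs, with a median of 7, 10, 4 and 5 per cell. Ncr1 at chr7:4337724-4345164 (plus strand) had a UMI in 26, 59, 2 and 8 cells. Klrb1c, the NK1.1 antigen gene at chr6:128778485-128789215 (minus strand), had one in 26, 55, 1 and 12 cells. Cells that entered through Gzma alone, without Ncr1 or Klrb1c, numbered 3 of 35 at D0, 0 of 65 at D1, 5 of 8 at D4 and 3 of 18 at D7. At D0 and D1 nearly every cell thus carried an NK receptor gene of the gate, and at D4 the larger part did not. These coordinates are of GENCODE M21 on GRCm38.

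Of 14 further NK marker genes that the rule did not use, the median cell held 9, 9, 5 and 7 at D0, D1, D4 and D7. At least 3 were present in 35 of 35, 65 of 65, 6 of 8 and 17 of 18 cells, against 20.3 to 33.1% of T cells and at most 0.0600% of proximal tubule cells of the same libraries. The proximal tubule gate took barcodes with at least 1% of UMIs from 10 tubule genes, Slc34a1 and Lrp2 not among them, no UMI of Ptprc, Nkg7, Cd79a or the Cd3 and C1q genes named above, and at most 2 of Umod, Slc12a1 and Slc12a3. Other genes of lymphocytes and phagocytes were not barred from it. Median depths were 1734, 2464, 5412.5 and 5768.5 UMIs in NK cells, and the proximal tubule gate had 4775 to 5863. Tyrobp had a UMI in 34 of 35, 64 of 65, 5 of 8 and 16 of 18 NK cells, and in 1.38, 4.74, 1.71 and 3.07% of proximal tubule barcodes. The label therefore fits the markers of the D0 and D1 cells and most of those at D7, and is weakest at D4.

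Defining markers of other lymphocytes, where the counts held them, were at or near 0. Cd4 and Cd5 had no UMI on any day. Of the 5 genes of the gamma delta T cell list only 1 was in the counts. It had no UMI either, but 1 gene cannot tell whether gamma delta T cells were among the barcodes. The T cell list outside the gate summed to 3, 16, 5 and 3 UMIs, at D1 all from Cd28 and Lef1, which T cells held at mean levels of 467 and 242 per 1000000 lymphoid-side UMIs, a scale explained below. The 5 UMIs at D4 were 2 of Cd8a, both in 1 cell, and 1 each of Cd8b1, Cd6 and Lef1, in 2 of 8 cells. As a level of all UMIs the list was highest at D4, at 19.1, 80.8, 99.1 and 27.2 CPM (counts per 1000000 of all UMIs) at D0, D1, D4 and D7. The B cell list had 0, 1, 0 and 0 UMIs. Type 1 innate lymphoid cells, relatives of NK cells that stay in tissues, are marked by Itga1, Cxcr6 and Il7r in the mouse. Itga1 was seen in 1, 1, 0 and 3 cells, Cxcr6 in 0, 1, 0 and 0, and Il7r in 2, 1, 0 and 0. The whole list of 15 genes of such cells summed to 290, 287, 73 and 185 UMIs, at 1850, 1450, 1447 and 1676 CPM, against 1064 to 1624 CPM in the proximal tubule gate. Its largest members were Tmem176a and Tmem176b, which the proximal tubule gate held at 499 to 804 CPM, and Ifng and Rgs1, which the cytokine and activation lists hold too. The T cell receptor and immunoglobulin constant genes were not analysed here.

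Markers of non-lymphoid cells were present in part. The phagocyte list summed to 95, 85, 27 and 21 UMIs, mostly of Cst3 and Apoe, at 606, 429, 535 and 190 CPM, against 231 to 293 CPM in the proximal tubule gate. Csf1r and Lyz2, more specific phagocyte genes, had 2, 0, 0 and 0 and 17, 5, 0 and 2 UMIs. Dendritic cell genes had 10, 4, 17 and 2 UMIs, at D4 in 2 cells. Neutrophil genes had 3, 3, 0 and 36 UMIs, and the 36 at D7 lay in 1 cell, with 19 of S100a8 and 15 of S100a9. Calb1, a distal tubule gene, had 17 UMIs at D4, all in 1 cell. Endothelial genes had 2, 2, 0 and 3 UMIs and basophil and mast cell genes 0, 2, 0 and 0. The part of these cells in the ratios below was not tested.

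RNA of the proximal tubule, the most abundant cell type of the kidney, was present in the NK barcodes and differed between days. Slc34a1, the sodium phosphate transporter of the proximal tubule, was at 2220 CPM in D0 cells (interval 1993 to 2466), 429 in D1 cells (interval 343 to 531), 1844 in D4 cells (interval 1488 to 2259) and 2329 in D7 cells (interval 2053 to 2632). In the proximal tubule gate, which did not use this gene, it stood at 2908, 1911, 3090 and 2613 CPM. Its NK UMIs were 348, 85, 93 and 257. The NK level was thus lowest at D1, at 22.5% of the tubule level, and was 76.4, 59.7 and 89.1% of it at D0, D4 and D7.

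Lrp2, the endocytic receptor megalin of the same cells, was at 370 CPM in D0 cells (interval 281 to 478), 106 in D1 cells (interval 65.7 to 162), 218 in D4 cells (interval 109 to 390) and 489 in D7 cells (interval 368 to 638). In the proximal tubule gate it was at 612, 438, 610 and 596 CPM. Both genes together reached 73.6% of the tubule level in D0 cells (interval 66.6 to 81.1%), 22.8% in D1 cells (interval 18.7 to 27.6%), 55.7% in D4 cells (interval 45.5 to 67.5%) and 87.8% in D7 cells (interval 78.3 to 98.1%). T cells carried 36.4, 30.3, 62.8 and 69.7% of it and B cells 53.1, 54.2, 82.2 and 56.8%. T cells, like NK cells, carried least at D1 and most at D7, and B cells carried most at D4. The order in NK cells depended on depth. With at least 3000 UMIs per barcode their level was 96.2% at D0, 34.6% at D1, 55.8% at D4 and 87.4% at D7. D0 was then highest, from 9 cells, and D1 still lowest.

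Carried RNA at D0 came from few cells. No UMI of either gene was found in 19 of 35 cells at D0, 39 of 65 at D1, 1 of 8 at D4 and 1 of 18 at D7. At D0, 6 cells with over 7000 UMIs held 67.2% of all NK UMIs and 97.1% of the Slc34a1 UMIs, and at D1 the 3 such cells held 15.2 and 23.5%. The median cell had 0.154, 0.106, 0.922 and 1.27% of its UMIs from 12 proximal tubule marker genes, against 1.97, 1.95, 1.72 and 1.68% in the proximal tubule gate. Cells at or under 0.5% numbered 28, 57, 2 and 3. Among the 8 D4 cells this share ran between 0.0318 and 1.59%. At D0 and D1 most cells were shallow with little tubule RNA, and the few with over 7000 UMIs held much of it. D1 cells with 3104 to 6490 UMIs were of both kinds, with 0 to 1.42% marker UMIs. At D4 and D7 most cells held much. The exceptions were the 2 D4 cells at 0.0346 and 0.0318% and the 3 D7 cells at 0.0317, 0.181 and 0.316%. Spp1 (osteopontin, secreted by injured tubule cells) had 85 and 35 UMIs in these D4 cells and 1, 74 and 7 in these D7 cells. The share counts 12 proximal tubule genes only, and other tubule RNA in these cells was not tested.

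**Figure D2:**
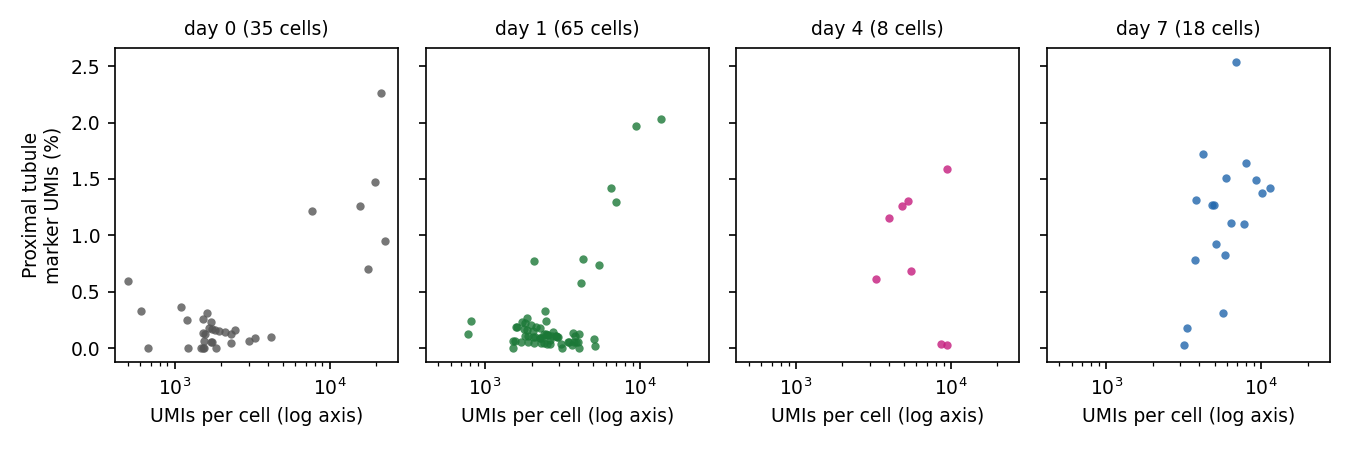
Each point is 1 NK-gated cell of D0, D1, D4 or D7 (panels), with its UMIs (x axis, log scale) and the percent of them from 12 proximal tubule marker genes (y axis). At D0 and D1 28 of 35 and 57 of 65 cells lie at or under 0.5%, against 2 of 8 at D4 and 3 of 18 at D7.

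The lymphocyte RNA in each cell was counted apart from this. Genes at least 10-fold higher in T and B cells than in the proximal tubule gate gave a median of 317, 437, 217.5 and 181.5 UMIs per NK cell at D0, D1, D4 and D7, and all other genes 1413, 1955, 5195 and 5447. The D4 and D7 cells were thus deeper by UMIs of other genes, not by UMIs of these lymphocyte genes. The other genes include those that lymphocytes share with tubule cells. T cells showed the same, with a median of 271.5, 399, 198 and 224 UMIs of these lymphocyte genes and 2367, 2899, 4545 and 5161 of others. Fewer NK transcripts per cell and a lower capture in the D4 and D7 libraries cannot be told apart. Kap, an abundant proximal tubule gene, was the top gene of the cell in 5 of 35, 3 of 65, 4 of 8 and 12 of 18 cells, with mitochondrial genes and Malat1 left out. Ccl5, a chemokine of killer lymphocytes, was the top gene in 14, 19, 1 and 0 cells. Doublets were not called, and 2 cells in 1 droplet and free RNA were not told apart.

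Levels below are therefore scaled to 1000000 lymphoid-side UMIs, that is, UMIs of the 2484 genes at least 2-fold higher in T and B cells than in the proximal tubule gate. These were 24.7, 42.5, 18.5 and 17.4% of NK UMIs at D0, D1, D4 and D7. By the tubule level of Slc34a1 and Lrp2, 29.2, 6.21, 30.7 and 54.0% of them were themselves carried. Levels of NK genes are thus lowered by the scale, most at D7 and least at D1, and their ratios of D1 over D0 are raised by it. The call rests on size alone and is no test: a ratio of at least 2-fold, in either direction, after adding 50 to both levels. Genes with at least 20 UMIs in both libraries together were read, apart from those of the gate and those below the tubule level on both days.

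The 20 leading genes, those outside the gate with the highest level over T cells (mean of 4 days), held 10 Klr genes, which encode lectin-like receptors of NK cells. They were Klra4, Klra8, Klre1, Klra9, Klri2, Klra3, Klrb1f, Klra7, Klrk1 and Klrd1. All 10 lie at chr6:129045901-130337574 (GENCODE M21, GRCm38), where 14 of the 1371 genes with at least 50 NK UMIs, or 1.02%, lie. Since Klrb1c of the gate lies beside this region and the cells were chosen with it, this is a description. The Klra (Ly49) genes are close copies of each other, and UMIs may be split between them.

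Klra4 (Ly49D, an activating receptor that signals through Tyrobp) stood at 1728 at D0, 1880 at D1, 0 at D4 and 1041 at D7, against a mean of 2.17 in T cells. It was seen in 20 of 35, 35 of 65, 0 of 8 and 8 of 18 cells. Tyrobp (the adaptor DAP12) stood at 6603, 7936, 1827 and 4320, and at 258 in T cells. Fcer1g stood at 4617, 6865, 1397 and 3747, and at 215 in T cells. These T cell levels are means of the 4 days. The adaptors were above T cells of the same day on every day and lowest at D4. T cells stood at 450 for Tyrobp and 287 for Fcer1g at D4, against 116 and 121 at D0. The NK levels at D4 rest on 17 and 13 UMIs.

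Klrk1 (the activating receptor NKG2D) stood at 1599, 2379, 1075 and 1301 at D0, D1, D4 and D7, and at 242 in T cells. Klrd1 (CD94, which pairs with NKG2 receptors) stood at 2115, 2463, 860 and 1665, and at 343 in T cells. Irf8, a transcription factor gene, stood at 1702, 2189, 107 and 989, and at 54.2 in T cells. Prf1 stood at 748, 1142, 215 and 468, with 29, 96, 2 and 9 UMIs. On this scale, whose carried part differed between days, all 4 genes were highest at D1 and lowest at D4. At D4 Klrk1, Klrd1, Irf8 and Prf1 had 10, 8, 1 and 2 UMIs. The D4 intervals of Klrk1 (515 to 1976), Klrd1 (371 to 1694) and Prf1 (26.0 to 776) include the D7 levels. Those of Klrk1 and Prf1 include the D0 levels too, and that of Irf8 (2.72 to 599) includes neither.

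Ccl3 and Ccl4, chemokines that draw in phagocytes and T cells, stood at 2270 and 8124 at D0, 2677 and 7353 at D1, 967 and 2794 at D4, and 1145 and 4580 at D7. Cma1, the chymase gene first known from mast cells, stood at 722, 571, 215 and 260. Mt1 (a metallothionein) and Hmox1 (heme oxygenase) entered the list through 1 D4 cell, which held 104 of 132 Mt1 and 44 of 45 Hmox1 UMIs of that day. Both had 3 to 6 UMIs on each other day. Cd9, a membrane protein gene, stood between 593 and 860 on all 4 days.

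**Figure D3:**
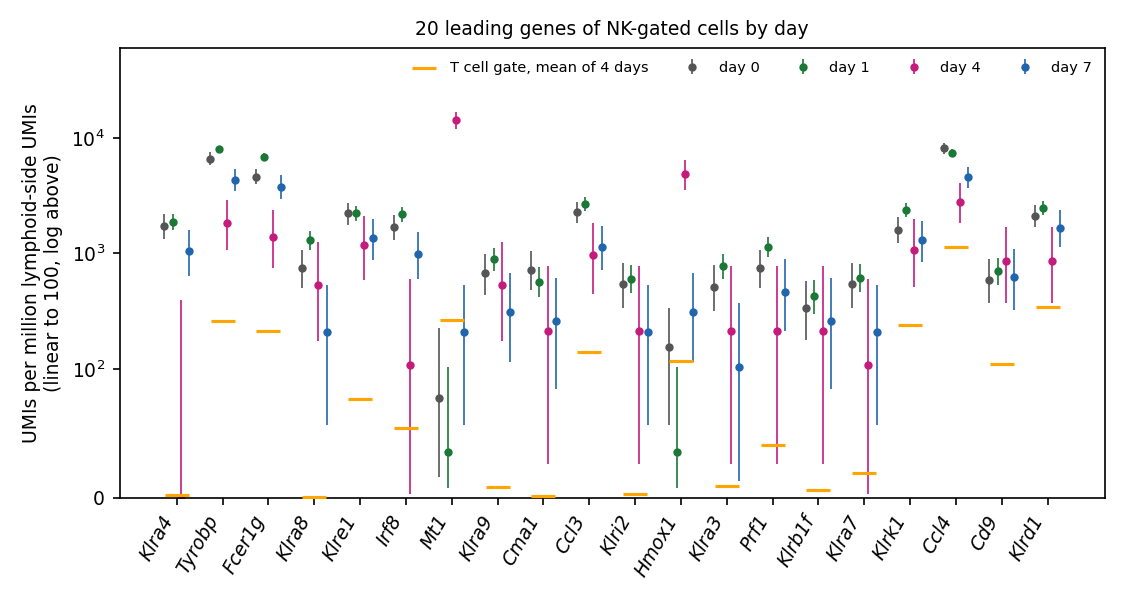
Level of the 20 leading genes (x axis, in rank order) in NK-gated cells at D0, D1, D4 and D7 (points with exact 95% Poisson intervals; y axis, UMIs per 1000000 lymphoid-side UMIs, linear to 100 and logarithmic above), with the mean T cell level as a bar. Klra4 is at 0 at D4, and Mt1 and Hmox1 are high at D4 alone, from 1 cell.

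At D1 against D0, the killing and receptor genes of NK cells were near their D0 level or moderately higher. Of 1547 genes read, 35 (2.26%) were called higher and 170 (11%) lower, and the median log2 ratio was -0.17. On the CPM scale the split turned, with 112 higher and 47 lower. Among the 600 that are lymphoid-side genes 25 (4.17%) were higher and 6 (1%) lower, with a median of 0.09. None of 10 cytotoxic genes was called in either direction, and the 11 with enough UMIs had a median of 0.20. Gzmb (granzyme B) had 227 UMIs at D1 and 58 at D0, at levels of 2701 and 1496. The cells with a Gzmb UMI were 45 of 65 at D1 and 19 of 35 at D0.

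The receptor genes had medians of 0.46 for 6 Ly49 genes and 0.31 for 13 other NK receptor genes, with 1 and 2 called higher and 0 lower. These medians turn to -0.25 and -0.35, and that of the cytotoxic genes to -0.50, when the proximal tubule profile is subtracted. That setting also scales to all NK UMIs less the carried share, not to lymphoid-side UMIs. The part of each step in the change was not tested. In cells with at most 0.5% tubule marker UMIs the medians, in the same order, are 0.03, -0.03 and 0.04. On the CPM scale they are 1.04, 0.88 and 0.80, and with at least 3000 UMIs per cell 1.14, 0.83 and 0.19. Scaled to the genes at least 10-fold higher in T and B cells they are 0.32, 0.17 and 0.04. Klrc2 (NKG2C, an activating partner of CD94) had 74 UMIs at D1 and 13 at D0, at levels of 880 and 335, a ratio of 2.63 (1.45 to 5.16). It was seen in 39 of 65 cells at D1 and 10 of 35 at D0. Its log2 ratio of 1.27 is 0.55 after subtraction and 0.92 at the 0.5% limit, both within 2-fold. Klra1 (Ly49A) had 25 UMIs at D1, in 11 cells, and 1 at D0. Cd160, another receptor gene, had 19 UMIs at D1 and 3 at D0, and its log2 ratio of 1.12 is 0.51 and 0.67 under those settings. Klrc2 and Klra1 have close copies among their neighbours, so their counts are uncertain.

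Of 12 receptor adaptor and signal genes 1 was called higher and 0 lower, with a median of 0.24. It was Cd247 (the zeta chain that relays receptor signals), with 26 UMIs at D1 and 4 at D0, whose log2 ratio of 1.23 is 0.59 after subtraction and 0.54 with at least 3000 UMIs per cell. Of 9 genes of mature NK cells 1 was higher, S1pr5, a receptor that guides their exit from tissue, with 18 UMIs at D1 and 2 at D0, at 1.38 or, after subtraction, 0.77. None of 10 NK transcription factor genes was called (median 0.25), Eomes among them with levels of 512 at D1 and 464 at D0. None of 6 chemokine and cytokine genes was called (median -0.08), although Ifng, the interferon gamma gene, had 118 UMIs at D1 and 28 at D0, at levels of 1404 and 722. None of 7 cytokine receptor genes was called (median 0.02), with Il2rb, the receptor chain for interleukins that keep NK cells alive, at 654 at D1 and 645 at D0. In the homing list S1pr5 alone of 13 genes was called (median 0.40). Ccl5 stood at 36335 at D1 and 42608 at D0, and Xcl1, which draws in dendritic cells, at 1499 and 1625.

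Of 4 interferon-stimulated genes with enough UMIs, Bst2 was higher, with 23 UMIs at D1 and 4 at D0 (log2 ratio 1.08, or 0.53 after subtraction), and Ly6a and Ly6e were lower. Ly6a had 10 UMIs at D1 and 82 at D0, where 1 cell held 52. The list summed to levels of 2368 at D1 and 5210 at D0. Of 17 activation and immediate-early genes Dusp1, a phosphatase gene, was lower, at 476 at D1 and 1135 at D0 (median of the list -0.08). The log2 ratios of Dusp1 and Ly6e were both -0.39 on the CPM scale, in place of -1.17. None of 8 MHC class I genes and none of 18 actin and cell shape genes was called, with medians of 0.14 and 0.15. In the cell cycle list Tubb5 was called higher, and Mki67 was seen in no cell at D0, D1 or D4 and in 1 at D7.

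Where both libraries together held at least 40 UMIs of a gene, the 6 with the highest ratios at D1 were Psip1, Vgll4, Cap1, Klrc2, Pnisr and Tuba1b. Their log2 ratios ran between 1.12 and 1.68, and Klra1 (2.20), S1pr5 (1.38) and Cd247 (1.23) had fewer UMIs. Psip1 (a chromatin-bound coactivator) had 37 UMIs at D1 and 4 at D0, a ratio of 4.27 (1.53 to 16.5). Vgll4 (a partner of TEAD factors) had 36 and 4 UMIs, and Cap1 (an actin regulator) 41 and 5. The UMIs of these 3 genes were spread over 27 to 29 cells at D1, with at most 5 in any cell. The intervals of all 6 ratios lay above 1 before any allowance for their choice among 1547 genes.

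The 6 genes with the lowest ratios at D1 were Ttr, Kap, Ly6a, Lpl, Napsa and Slc17a3, and all 6 stood higher in the proximal tubule gate than in NK cells at D1. Kap stood at 11076 at D1 and 214485 at D0, where 1 cell held 4035 of its 8316 UMIs. Ttr, the carrier of thyroxine, had 6 UMIs at D1 and 207 at D0, of which 105 lay in 1 cell. Restricted to cells with at most 0.5% tubule marker UMIs, 57 at D1 and 28 at D0, the log2 ratio of Kap was -0.09 in place of -4.27, that of Lpl 0.02 in place of -3.57 and that of Ly6a -0.21 in place of -3.68. In the same cells 24 of 1057 genes read were lower and 56 higher.

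**Figure D4:**
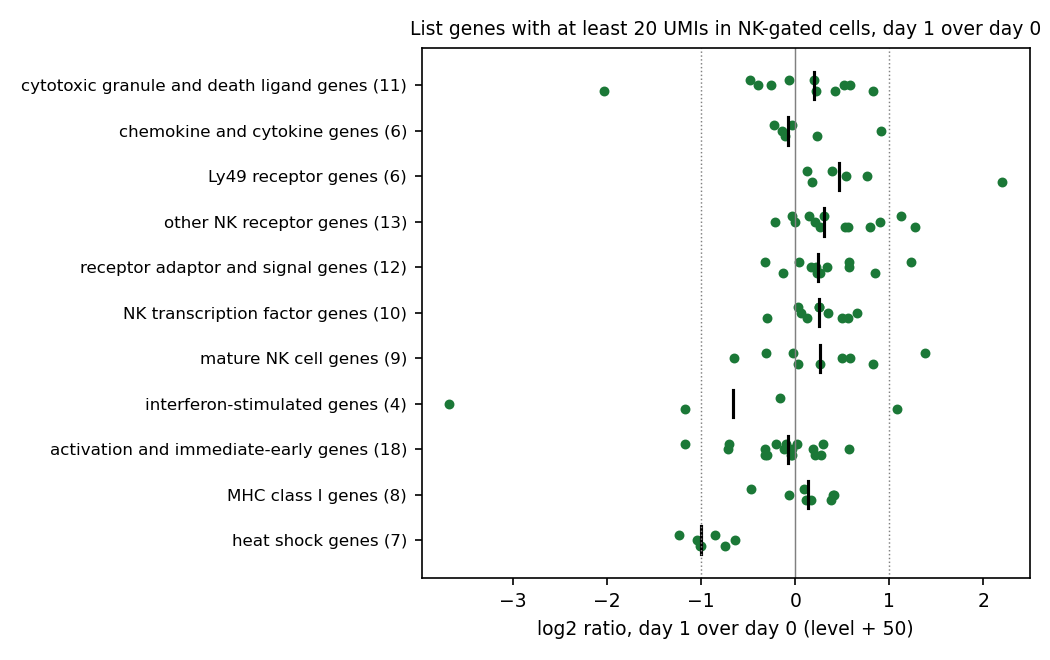
Log2 ratio of D1 over D0 (x axis; level plus 50 UMIs per 1000000 lymphoid-side UMIs) for genes with at least 20 UMIs in 11 gene lists (rows; number of genes in parentheses), with 1 point per gene, a black bar at the list median and dotted lines at 2-fold. Cytotoxic, receptor, adaptor and transcription factor genes lie around medians of 0.20 to 0.46, and few pass 2-fold.

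At D4 against D0, several NK effector and receptor genes were lower, in 8 cells with 9306 lymphoid-side UMIs, against 35 cells with 38772 at D0. Of 860 genes read 146 (17%) were higher and 92 (10.7%) lower, and of 282 lymphoid-side genes among them 20 (7.09%) were higher and 62 (22%) lower. On the CPM scale 47 of the 860 were higher and 95 lower. Klra4, Xcl1 and Gzmb had 0 UMIs at D4, against 67, 63 and 58 at D0. From a floor of 3 UMIs at D4 their levels were at most 0.187, 0.198 and 0.216 times those at D0. Irf8 had 1 UMI at D4 and 66 at D0, a ratio of 0.0631 (0.00157 to 0.364). Rac2, a GTPase gene of blood cells, had 2 and 68.

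By list, 5 of 7 cytotoxic genes were lower at D4 (Gzmb, Prf1, Ctsw, Serpinb9 and Serpinb6b), as were 3 of 5 Ly49 genes, 3 of 5 adaptor genes (Tyrobp, Fcer1g and Txk) and 4 of 5 chemokine and cytokine genes (Ccl3, Ccl4, Xcl1 and Ifng). None in these lists was higher. Il2rb had 0 UMIs at D4 and 25 at D0, and Ctsw, a cathepsin gene of killer cells, 1 and 37. The medians were -1.81, -1.09, -1.54 and -1.52, or -1.45 for the cytotoxic genes with those at 0 placed at their bound. The share called lower among all lymphoid-side genes was 22%, as given above. In cells with at least 3000 UMIs, which leaves 9 at D0, Ccl4 and Ccl3 turned to log2 ratios of 1.29 and 0.18. Fcer1g (-0.58) and Klrd1 (-0.22) then lay within 2-fold. Klra3, with 2 UMIs at D4 and 6 at D0, and Klra7, with 1 and 3, had too few for a ratio. None of the 5 cytotoxic genes called lower had enough UMIs at this depth. Prf1 had 2 at D4 and 7 at D0, Ctsw 1 and 14, Serpinb9 0 and 12, and Serpinb6b 1 and 12. Whether these genes were lower in the deep cells thus cannot be read. In those cells Klra4 and Xcl1 each had 0 UMIs at D4 and 21 at D0, at most 0.29 times the D0 level by the same floor. Irf8 had 1 UMI at D4 and 18 at D0, and Rac2 2 and 22. Gzmb, with 0 and 3, had too few for a ratio, as had Cma1 with 2 and 3. Scaled to the genes at least 10-fold higher in T and B cells (the 10-fold gene scale), the 5 cytotoxic calls stayed past 2-fold, as did 2 of 3 Ly49 calls, 1 of 3 adaptor calls (Tyrobp) and 1 of 4 chemokine and cytokine calls (Xcl1). Fcer1g and Ifng were both at -0.96 there, Txk at -0.90, Ccl4 at -0.78, Klra3 at -0.49 and Ccl3 at -0.47. At D4, 5 of 8 cells lacked Ncr1 and Klrb1c, and the tubule level of Slc34a1 and Lrp2 was 55.7%. Their part in these ratios was not tested.

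Of the 6 genes with the highest ratios at D4, counting those with 40 or more UMIs over both libraries, the first 3 came largely from single cells. Hspb1, below that minimum, had 27 UMIs at D4, 26 of them in 1 cell, and 1 at D0. The 8 cells at D4 had 3279 to 9442 UMIs, and 4 to 23 of Gzma. The 6 genes were Mt1, Hmox1, Spp1, Jun, Tsc22d1 and Errfi1. Spp1 (osteopontin, secreted by injured tubule cells) had 140 UMIs at D4 and 50 at D0, and 1 cell of each day held 85 and 49 of them, at D4 the cell rich in Mt1 and Hmox1. Jun, an AP-1 factor gene, had 74 UMIs in 6 cells at D4 and 32 in 11 at D0. Of 15 activation and immediate-early genes 6 were higher and 2 lower, where 17% of all genes read were higher and 10.7% lower. On the CPM scale 2 of the 6, Jun and Dusp1, stayed past 2-fold, and Fos (0.58), Junb (0.90), Nfkbia (0.72) and Klf6 (0.74) did not. At D4, 1 cell held 20 of 31 Junb UMIs and 1 held 6 of 8 Nfkbia UMIs. Jun stood at 1467 CPM in NK cells at D4 and 970 in the proximal tubule gate, and Errfi1 at 654 and 643, so that Errfi1 was close to the tubule level.

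At D7 against D0, most NK genes outside the Ly49 list lay within 2-fold. Of 1060 genes read 202 (19.1%) were higher and 44 (4.15%) lower, and of 317 lymphoid-side genes 8 (2.52%) and 31 (9.78%). On the CPM scale 43 of the 1060 were higher and 72 lower. Of 8 cytotoxic genes 1 was lower (Serpinb9, an inhibitor of granzyme B), with a median of -0.49, which becomes 0.01 on the 10-fold gene scale. Of 5 Ly49 genes 3 were lower (Klra3, Klra7 and Klra8), with a median of -1.20, which becomes -0.83 on that scale. Of 5 other receptor genes 1 was lower (Klri2), with a median of -0.34, which turns to 0.17 on that scale. There Serpinb9 (-0.81), Klra7 (-0.83) and Klri2 (-0.83) lay within 2-fold. The size or direction of these medians at D7 thus rests on the scale. In cells with at least 3000 UMIs, 1 Ly49 gene and 3 other receptor genes had enough UMIs, fewer than the 4 set as a minimum for a median.

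Gzmb had 20 UMIs in 10 of 18 cells at D7, against 58 in 19 of 35 at D0, at levels of 1041 and 1496. After each cell was thinned to 1000 UMIs, Gzmb was seen in 2 of 18 cells (11.1%) at D7 and 13 of 32 (40.6%) at D0, with 3 shallower D0 cells left out, and in at most 0.0839% of proximal tubule barcodes on any day. The thinning drew on all UMIs. Genes at least 10-fold higher in T and B cells were a median of 3.96% of these per NK cell at D7 and 18.3% at D0. More lymphocyte RNA was thus removed at D7, and the thinned shares cannot be read as a loss of Gzmb. Ifng had 5 UMIs at D7 and 28 at D0, and Cma1 5 and 28. Of 6 transcription factor genes Id2 was higher, at 734 CPM in NK cells and 701 in the proximal tubule gate, and Klf2 was lower, and Eomes had 1 UMI at D7 and 18 at D0. Ptprcap and Ptpn18, genes of lymphocyte phosphatase signalling, were among the 6 with the lowest ratios of genes with 40 or more UMIs over both libraries, with 12 UMIs each at D7 and 71 and 68 at D0. Their log2 ratios were -1.48 and -1.42, and Cd2 (-2.06), Klra3 (-1.88), Il2rg (-1.70) and Klra8 (-1.63), with fewer UMIs, were lower still.

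Where both libraries together held at least 40 UMIs of a gene, the 6 with the highest ratios at D7 stood near the tubule level. Pim3 was at 353 CPM in NK cells and 332 in the proximal tubule gate at D7, Tns1 at 299 and 290, Jun at 897 and 813, Errfi1 at 616 and 538, Tsc22d1 at 535 and 404, and Spp1 at 1332 and 1275. Of 6 heat shock genes 5 were higher and 0 lower, where 19.1% of all genes read were higher. On the CPM scale, and likewise with at least 3000 UMIs per cell, 2 of the 5 stayed past 2-fold, Hspa1a and Hspa1b. Under these settings Hsph1 was at 0.61 and 0.42, Hsp90aa1 at 0.76 and 0.71, and Hspd1 at 0.50 and 0.17. Hspa1a had 36 UMIs in 10 cells at D7 and 3 in 1 cell at D0, a log2 ratio of 3.92 that is above that of Pim3 (3.02), and Hspa1b was at 2.96. Hspa1a stood at 326 CPM in NK cells and 238 in the proximal tubule gate at D7. Hspa1a and Hspa1b are close copies, and their counts are uncertain. Whether these transcripts belonged to the NK cells was not tested.

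Between D7 and D4, both from libraries with deep barcodes only, 75 of 650 genes (11.5%) were higher and 40 (6.15%) lower at D7. Among 166 lymphoid-side genes 10 (6.02%) were higher and 12 (7.23%) lower, and on the CPM scale 45 of the 650 were higher and 33 lower. In the adaptor list Tyrobp had 83 UMIs at D7 and 17 at D4, Fcer1g 72 and 13, and both were called higher. Gzmb and Klra4 had 20 UMIs each at D7 and 0 at D4, and Irf8 19 and 1. Their log2 ratios were 4.45, 4.45 and 2.72, those of Gzmb and Klra4 against 0 UMIs and so set by the pseudocount. Where both libraries together held at least 40 UMIs of a gene, the highest ratios at D7 were those of Ggt1 (2.26), Srsf5, Slc22a6, Slc27a2, Slc7a13 and Nat8, of which all but Srsf5 are genes of the proximal tubule. The lowest among them were those of Mt1, Hmox1, Sqstm1, Ly6a, Actg1 and Dstn, and for each a single D4 cell held over 50% of the UMIs of that day. Beside the Mt1 and Hmox1 counts given above, this was 23 of 29 UMIs for Sqstm1, 39 of 54 for Ly6a, 60 of 115 for Actg1 and 17 of 29 for Dstn. Hspb1, a heat shock gene with fewer UMIs, had 9 at D7 and 27 at D4, 26 of them in 1 cell.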

How the data were processed

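Droplet single-cell RNA sequencing of digested mouse kidney was measured in 4 libraries, 1 per day. The authors deposited raw UMI counts, 1 matrix of genes by barcodes for each library. Cell Ranger 3.1.0 and mm10 are named per the submitters' processing notes, and the matrix headers name software version 3.0.1. How barcodes were called as cells, and the annotation release, is not given in the sources used here. Deposited barcode lists were used as they stand, and doublets were not called.

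NK cells, T cells (at least 2 UMIs of Cd3d, Cd3e and Cd3g), B cells (at least 2 of Cd79a) and proximal tubule cells (at least 1% tubule marker UMIs, without Slc34a1 and Lrp2, and no UMI of Ptprc, Nkg7, Cd3, Cd79a or C1q genes) were gated by UMIs, and UMIs were summed per library. Levels are scaled to 1000000 UMIs of genes at least 2-fold higher in T and B cells than in the tubule gate at D0 and D1 (at least 20 UMIs). Ratios use a pseudocount of 50. Intervals are exact Poisson, Poisson ratio and Clopper-Pearson. All were computed with Python 3.11.15, numpy 2.4.6 and scipy 1.17.1. edgeR 4.0.16 gave TMM factors as a scaling only. Ratios and intervals were tried on simulated Poisson counts with no added spread between cells. The trial does not cover counts that rest on single cells.

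The members, the 33 gene lists and the rules were chosen with earlier results of these data known. Genes are named if among the 20 leading genes, the 6 highest or lowest called genes with at least 40 UMIs in a pair, or list members that were called or among the 6 with most UMIs. Eomes, Csf1r, S100a9, Calb1, Cd8a, Cd8b1, Cd6, Cd28, Lef1, Mki67 and the innate lymphoid genes were named after their values were seen. Alternatives were other scalings, depth, mt- and tubule RNA limits, gates, pseudocounts and minimum counts.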

Additional observations from a re-analysis of the deposited data

How the results depend on the processing

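No paired analysis was possible because each day has 1 library and all are numbered replicate 1. Leaving out a replicate would leave no library for that day. The limits on tubule RNA at 0.5%, the 10-fold gene scale and the reading of lymphoid-side genes alone were added after the data were seen.

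With at least 3000 UMIs per cell the NK share was 0.0913% at D0 and 0.282% at D1, and the carried level was 96.2% of the tubule level at D0 and 34.6% at D1. With at most 0.5% tubule marker UMIs the share was 0.0124% at D4 and 0.0208% at D7. With the looser gate the share was 0.0932% at D4 in place of 0.0497%, and the D7 interval against D0 included 1. Under the 6 settings tried the share at D1 remained above that at D0.

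Counts of called genes moved with the scale. Genes higher and lower at D1 over D0 numbered 112 and 47 on CPM, 139 and 45 with TMM factors, and 264 and 65 with median-of-ratios factors. For D4 over D0, 47 were higher on CPM, 37 were higher and 151 lower with TMM, and 46 and 184 with median-of-ratios factors. For D7 over D0, counts were 43 and 72 on CPM, 39 and 81 with TMM, and 76 and 136 with median-of-ratios factors. For D7 over D4, 45 were higher on CPM and 22 lower with TMM. On the 10-fold gene scale 279 were lower for D1 over D0, 428 higher and 44 lower for D4 over D0, 431 and 22 for D7 over D0, and 71 lower for D7 over D4.

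With the tubule profile subtracted, 146 were higher for D1 over D0 and 316 lower for D4 over D0. For D7, 332 were higher and 235 lower over D0, and 279 and 168 over D4. This setting also scales to all NK UMIs less the carried share. With at least 3000 UMIs per cell 317 of 902 genes read were lower for D1 over D0. For D4 and D7 over D0, 53 of 678 and 63 of 895 were higher. With each cell weighted equally, higher counts were 58, 291 and 351 for D1, D4 and D7 over D0, and 69 were lower at D7. With a pseudocount of 200 there were 5 higher and 85 lower at D1, and 132 and 27 at D7. Without a minimum beyond 1 UMI there were 241 and 989 of 7514 genes read at D1, and 2785 and 1499 of 7621 at D4. There were 2542 and 888 of 7672 at D7, and 2418 and 1769 of 7698 for D7 over D4. With at most 0.5% tubule marker UMIs there were 56 and 24 of 1057 genes read at D1 and 40 and 68 of 331 at D7. For D7 over D4, 10 of 178 were higher. Among lymphoid-side genes alone 6 of 600 were lower at D1, 20 of 282 higher at D4 and 8 of 317 higher at D7. For D7 over D4, 10 of 167 were higher and 12 lower.

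At D1 over D0 the median of the cytotoxic genes was 0.80 on CPM, 0.84 with TMM, 0.91 with median-of-ratios factors and -0.50 after subtraction. That of the other receptor genes was 0.93 with TMM, 1.00 with median-of-ratios factors, -0.35 after subtraction, -0.01 with cells weighted equally and -0.03 at the 0.5% limit. That of the Ly49 genes was 1.04 on CPM, 1.09 with TMM, 1.18 with median-of-ratios factors, 1.14 with at least 3000 UMIs, -0.25 after subtraction and 0.03 at the 0.5% limit. At D7 over D0 the Ly49 median was -0.68 after subtraction, -0.09 with at least 3000 UMIs and -4.07 at the 0.5% limit. That of the other receptor genes was 0.26, 0.70 and -1.42 under these settings, and 0.17 on the 10-fold gene scale. The values at 3000 UMIs rest on 1 and 3 genes.

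The ratios of named genes gave 1846 values under the other settings, each ratio counted once per setting. Of these values 1587 were counted as the same, 238 moved without turning and 21 turned, as follows. After subtraction Fos at D4 over D0 was -0.35 and Hcst at D7 over D4 was 0.40. With at least 3000 UMIs Cma1, Ccl3 and Ccl4 at D4 were 0.34, 0.18 and 1.29, and Klra8, Klra7 and Cma1 at D7 were 0.31, 0.31 and 0.57, where Cma1, Klra7 and Klra8 had 2 to 5 UMIs on each day. At the 0.5% limit Lpl and Slc17a3 at D1 were 0.02 and 0.86, and Errfi1 and Fos at D4 were -2.06 and -0.71. Eno1, Hsph1, Id2 and Pim3 at D7 were -2.52, -1.75, -0.91 and -0.84. Nat8, Hcst, Ggt1, Hspa1b and Hspa1a for D7 over D4 were -2.49, 0.08, -0.79, -3.36 and -0.79. The causes were not tested. At D4 and D7 the 0.5% limit leaves 2 and 3 cells, and the values there rest on those cells. On both days they include cells rich in Spp1.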
